A study of Homo sapiens with 18 samples.

Results

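Transient gain regions are stretches of the genome where a DNA-RNA hybrid peak was called after 5 min of CPT but neither before treatment nor after 60 min. They were chosen by measured values, namely the presence of peaks in the DRIP lists: within each treatment, peaks that overlapped a peak of the other replicate by at least 1 bp were kept and merged, the 3 treatments were merged into regions, and a region was a transient gain when it held a peak of both 5 min replicates and no peak of either untreated list or either 60 min list. The rule took 1284 of 28518 regions. DRIP-seq sequences genomic DNA fragments that are pulled down with the S9.6 antibody, which binds DNA-RNA hybrids. The cells were HCT116, a human colorectal carcinoma line, either untreated (NT) or exposed to CPT at 10 μM, for either 5 or 60 min, and each treatment had 2 biological replicates. From every replicate came 3 libraries: DRIP, RNase H DRIP, in which the DNA was digested with RNase H ahead of the pull-down, and input. Per the methods of the study, each DRIP-seq replicate pooled parallel DRIP samples, DNA was cut with 5 restriction enzymes (Bsr GI, Eco RI, Hind III, Ssp I, Xba I), and cells were collected, washed and pelleted before lysis, so some drug-free time followed each exposure. No marker gene of the cell line can be checked in peak lists.

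DNA topoisomerase I relaxes the supercoils that form ahead of and behind moving RNA polymerases by nicking a single DNA strand and resealing it. CPT (camptothecin) traps the enzyme on the nicked strand as a Top1 cleavage complex, which blocks polymerases and leaves supercoils in place. An R loop forms when nascent RNA pairs with its DNA template and displaces the other strand. R loops are known to favor GC-rich transcribed DNA with runs of G on the displaced strand, and RNase H enzymes remove them by degrading the hybridized RNA.

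Stretches of 200 bases around the replicate 1 summit are shown for 2 of the strongest transient gains, 1 intergenic and 1 in an intron, as examples of single-copy DNA under such peaks. They were read from the plus strand of the GRCh37 (hg19) reference genome, and runs of 3 or more G or C are in capitals.

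Intergenic, 13.5 kb from GGT5, chr22:24601984-24602183: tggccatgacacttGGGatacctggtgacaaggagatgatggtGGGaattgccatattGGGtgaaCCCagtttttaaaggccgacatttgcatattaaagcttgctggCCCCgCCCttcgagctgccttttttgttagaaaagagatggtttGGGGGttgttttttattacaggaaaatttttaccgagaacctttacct

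RAD51B intron, chr14:69012846-69013045: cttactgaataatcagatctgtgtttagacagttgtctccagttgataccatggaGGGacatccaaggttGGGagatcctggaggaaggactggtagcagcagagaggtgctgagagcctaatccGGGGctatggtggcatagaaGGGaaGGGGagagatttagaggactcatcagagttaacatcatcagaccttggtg

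The window near GGT5 held 7 such runs, 4 of G and 3 of C, and had a GC content of 44%. The window of RAD51B held 5, all of them G on the printed strand, which is the sense strand of that gene, and had a GC content of 49%. In both windows, the median number of genome-wide copies over the 24-base words was 1. The 2 windows do not stand for the 46.3% of members whose centre recurred 10 or more times in the genome, described with the sequence content. A 5 min RNase H DRIP peak of replicate 2 met both of these members, and that list met 284 of the 1284 members (22.1%). Over all transient gains, the 200-base summit window held a median of 4 runs (interquartile range, 2.75 to 6), the same median as in stable gains, which carried a peak in both replicates at 5 min and at 60 min and in neither NT list. It held no CpG in 278 of 1284 transient gains (21.7%) and in 216 of 1519 stable gains (14.2%).

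A transient gain was in most cases a single peak of middling rank in each 5 min replicate. The values of these peaks chose the members and are given as a description. Of the 1284 members, 1274 (99.2%) had exactly 1 peak in each 5 min list, whereas 53.5% of stable gains did. The fold enrichment of the 5 min peak over input, as called by the authors, had a median of 4.01 in replicate 1 (interquartile range, 3.61 to 4.78; range, 2.38 to 11.7) and 3.71 in replicate 2 (3.28 to 4.30; 2.24 to 12.4). Since fold enrichments are comparable within 1 list only, each was also given as a percentile of its list. The members had a median percentile of 48.4 in replicate 1 and 39.3 in replicate 2, and stable gains had 65.7 and 78.2, so members sat at or below the middle of the lists that chose them. Where a region held several peaks of a list, the peak with the highest fold enrichment stood for it. Stable gains held several more often than members did. The part of peak number in the contrasts with stable gains was not tested. Peaks of the top 10% of the list were found at 69 members (5.37%) in replicate 1 and 21 members (1.64%) in replicate 2, against 16.9% and 27.8% of stable gains. The median −log10 q was 3.26 and 3.14, while the weakest peak of any DRIP list lay between 1.30 and 1.31. A −log10 q under 2 was seen at 189 members (14.7%) in replicate 1 and 198 (15.4%) in replicate 2. The fold enrichments took few distinct values, 372 in replicate 1 and 428 in replicate 2, with 86 members at exactly 4.41 in replicate 1 and 71 at 3.71 in replicate 2. The deposited peaks had median widths of 513 and 396.5 bp.

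**Figure D1:**
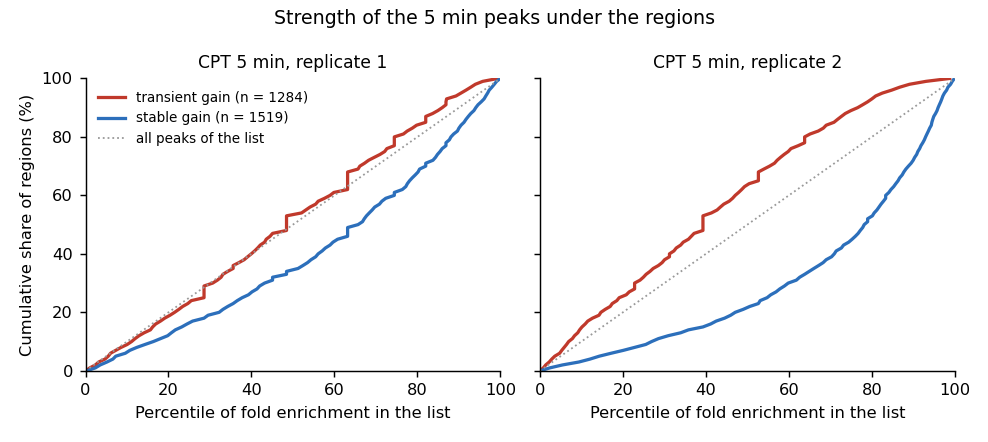
Cumulative share of regions (y axis, percent) against the percentile of the strongest 5 min peak of the region by fold enrichment within its own list (x axis), for replicate 1 and replicate 2, with the dotted diagonal standing for all peaks of the list. Transient gains followed or lay above the diagonal, with medians at percentiles 48.4 and 39.3, and stable gains lay below it, with medians at 65.7 and 78.2.

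The rule required the 5 min peaks of the replicates to overlap, so their nearness is given as a description, while their ranks were free to differ. Summits of the 2 replicates were a median of 143 bp apart (interquartile range, 40 to 287 bp), and 348 members (27.1%) had them within 50 bp. The shared stretch had a median of 336 bp, it was under 50 bp at 50 members and 1 bp at the narrowest, and in 819 of the 1274 members with a single peak in each list (64.3%) the shorter peak lay wholly inside the longer. The percentiles of the replicates had a Spearman coefficient of 0.04 across the 1284 members, given as a description, against 0.32 across stable gains and 0.49 across the 3719 regions with a peak in all 6 DRIP lists. Regions with several peaks again entered with their strongest, and the part of this in the coefficients was not tested. Both percentiles were in the top 25% of their lists at 33 members (2.57%) and at 26.4% of stable gains, and both were in the bottom 25% at 104 members (8.10%). The lists themselves differed in length, with 33852 and 56543 peaks at 5 min, 30314 and 52967 in NT, and 41668 and 72879 after 60 min. The lists give no read depth, so a missing peak is a call below the threshold in that library and not a measured absence of hybrids.

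The members were the smallest of 5 groups of regions that carried both 5 min peaks. Both 5 min lists carried a peak at 11130 regions, of which 1284 met none of the 4 NT and 60 min lists, 1603 met 1 list, 2428 met 2, 2096 met 3 and 3719 met all 4. Of the 1603 regions just outside the rule, 783 met only the 60 min list of replicate 2, the longest of the lists, and 262 to 282 met only each of the other 3. The smallest overlap that kept such a region out was 2 to 4 bp, and the nearest NT or 60 min peak to a member was 1 bp away, with a median distance of 4167 bp and 314 members (24.5%) within 1000 bp of such a peak. By the same lists, 3868 of all regions (13.6%) were gained at 5 min and 2058 (7.22%) were lost between 5 and 60 min. Every transient gain is in both of these counts because the rule fixes it, and nothing is read from them. With the lists of a single replicate in place of both, 17886 regions in replicate 1 or 19006 in replicate 2 met the rule. Region properties that the rule did not use differed along this count of other lists. From 0 to 4 other lists, the median GC content was 40.3%, 43.0%, 44.6%, 47.9% and 53.3%, and the share of regions over 10 kb from any protein-coding gene was 34.2%, 27.9%, 17.3%, 19.6% and 10.1%. The GC content increased at each step, and the distant share did not fall at each step. The median width of the regions also rose with the count, being 633, 737, 1736.5, 2549.5 and 5787 bp. The part of width in the differences of GC content and position was not tested. The members had the lowest GC content and the largest distant share of the 5 groups.

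The 12 members with the highest percentiles in both 5 min lists were scattered over 10 chromosomes. The strongest was an intergenic region 13.5 kb from GGT5, a gamma-glutamyltransferase family gene, at chr22:24601507-24602672. Its 5 min peaks had fold enrichments of 6.16 in replicate 1 and 8.64 in replicate 2, which were percentiles 91.5 and 96.0, and no peak in the 4 other lists. An intron of RAD51B, a gene of homologous recombination, held the member at chr14:69012840-69013391, with fold enrichments of 6.02 and 8.91. It was 275 bp from the nearest NT or 60 min peak and lay 727 kb from the gene start. KTN1, which encodes the endoplasmic reticulum protein kinectin, had an exonic member of 1255 bp (7.22 and 6.23), 26.7 kb away from any NT or 60 min peak. Introns of PRKAG2, a regulatory subunit gene of AMP-activated kinase (5.73 and 6.36), of PTPRD, a receptor tyrosine phosphatase (6.26 and 5.94), of TDRD12, a piRNA pathway gene (6.18 and 5.77), and of MOSMO, a modulator of Hedgehog signaling (5.85 and 5.68), each held a further member. CLNK, an immune cell adaptor gene, held another, which was classed as terminator (5.52 and 5.94). The other 4 lay over 10 kb from protein-coding genes, near SCN7A, a sodium channel gene, and within the lncRNA genes ENSG00000289228, LINC01478 and LINC02932. In 5 of the 12, the 200-base centre was single-copy sequence by its median 24-base word, and in the other 7 the median ran from 20 to 3736 copies in the genome. A 5 min RNase H peak met 6 of the 12, in each case a peak of replicate 2. That list met 284 of all 1284 members (22.1%).

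Transient gains were narrow regions away from gene starts. Their width had a median of 633 bp (interquartile range, 503 to 842; range, 334 to 3645 bp), and together they covered 939128 bp. Width follows from the peaks that the rule used and is given as a description. By their midpoint, 649 members (50.5%) were in introns of protein-coding genes, 13 (1.01%) in exons, 67 (5.22%) in promoters, 116 (9.03%) in terminators and 439 (34.2%) outside all of these. Promoter stands here for the 10 kb before a gene with its 5′UTR, and terminator for its 3′UTR with the 10 kb after it. The intron share was near that of all regions (45.9%) and of stable gains (50.4%). What differed was the balance of promoters and distant DNA: the promoter share was 5.22% (95% Wilson interval, 4.13 to 6.57%) against 23.4% of all regions and 28.6% of stable gains, and the outside share was 34.2% (31.6 to 36.8%) against 13.1% and 7.90%. These intervals cover counting error only, and regions are not replicates of a treatment. With the lists of replicate 1 only the outside share was 41.1%, and with those of replicate 2 only it was 26.5%. LncRNA genes held 133 of the 439 outside members, and 306 members (23.8%) were in neither a lncRNA gene nor a protein-coding gene or its flanks, against 8.62% of all regions. Outside members were a median of 117 kb from the nearest protein-coding gene. Of them, 235 were over 100 kb away, which is 18.3% of all members against 5.74% of all regions, and 46 were over 500 kb away, the farthest at 1769 kb.

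**Figure D2:**
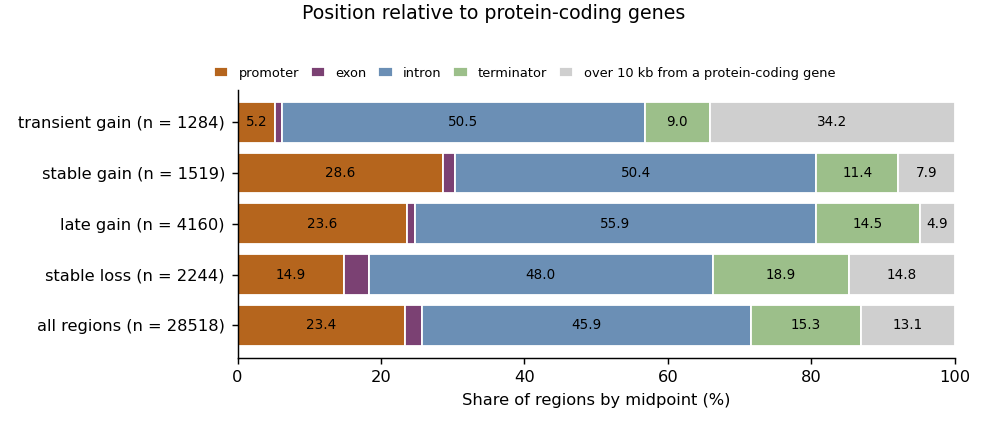
Share of regions by the position of their midpoint (x axis, percent) in promoters, exons, introns, terminators or over 10 kb from any protein-coding gene, with a bar for each of 5 region sets. Transient gains had the smallest promoter share of the 5 sets, 5.22%, and the largest distant share, 34.2%.

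Where transient gains lay in protein-coding genes, the genes were long and the regions deep inside them. The 750 members with a midpoint in a protein-coding gene had host genes with a median length of 132 kb (95% interval of the median, 122 to 146 kb), compared with 50.8 kb for stable gains, 59.0 kb for late gains, 67.5 kb for stable losses and 52.9 kb for all regions. Late gains carried peaks in both replicates at 60 min only, and stable losses in both NT replicates only. Genes over 200 kb hosted 243 of these members (32.4%) against 9.21% of stable gains and 11.6% of all regions, and genes over 500 kb hosted 69 (9.20%) against 2.75% of all regions. The members were a median of 63.5 kb from the annotated gene start (interquartile range, 34.2 to 127 kb), whereas stable gains were 5.03 kb, late gains 8.93 kb and stable losses 38.8 kb from it. Only 38 of the 750 (5.07%) were within 10 kb of the start, against 69.6% of stable gains and 56.2% of late gains. The same order of the gains was found in genes of 100 to 300 kb, where the 319 members were a median of 82.3 kb from the start, stable gains 7.60 kb, late gains 11.3 kb and stable losses 95.5 kb from it. As a share of gene length, the median position was 57.2% for members, 12.7% for stable gains and 68.8% for stable losses.

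The same order was found inside single genes. In 113 genes that held both a transient and a stable gain, the transient gain was the farther from the start in 105 (92.9%), with medians of 60.6 and 9.27 kb. In 228 genes that held both a transient and a late gain, the transient gain was the farther in 205 (89.9%), at 61.6 against 9.76 kb. Compared with regions present in all 6 DRIP lists, it was the farther in 89 of 118 genes (75.4%), and compared with stable losses in 34 of 86 (39.5%). In most of the shared genes, transient gains thus lay downstream of both other kinds of gain and upstream of stable losses. Among the 718 protein-coding host genes, 228 (31.8%) also held a late gain, 113 (15.7%) a stable gain, and 158 no other region at all.

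Members were dispersed, with 84 of 945 protein-coding or lncRNA host genes holding more than 1 and 9 holding 3 or 4. HSPA4, which encodes a chaperone of the Hsp110 family, RUNX1, a transcription factor of blood cell development, and SAE1, a subunit of the enzyme that activates SUMO, held 4 each. AP1S3, a clathrin adaptor subunit, C2CD3, a centriole protein, PTPRD, RBL1, which encodes the pocket protein p107, RBM25, a splicing regulator, and SKAP1, a T cell receptor adaptor, held 3 each. In HSPA4 (chr5:132387705-132442141, plus strand, 54.4 kb) the 4 members lay at 25.7 to 26.1, 31.7 to 33.0, 50.8 to 51.3 and 51.8 to 52.4 kb from the start. Their fold enrichments were 3.68, 3.68, 3.97 and 4.14 in replicate 1 and 3.96, 5.45, 4.87 and 6.81 in replicate 2. A 5 min RNase H peak of replicate 2 met the last 2 of them and a 60 min RNase H peak of replicate 2 the first, so RNase H peaks met 3 of the 4. The stretch from the start to 19.8 kb carried 60 min peaks of both replicates, including late gains at 9.06 to 10.2 and 15.3 to 16.3 kb. HSPA4 thus had the 60 min peaks shared by both replicates in its first part and its transient gains in the remainder, where replicate 2 alone had further 60 min peaks. The members of HSPA4 were moderate: percentiles in replicate 1 ran from 35.6 to 54.4. The 4 SAE1 members lay 39.1 to 78.1 kb from the start of a 97.4 kb gene, and those of RUNX1 171 to 738 kb from the start of a gene annotated with 1217 kb. The 3 members of RBM25 fell between 53.3 and 61.2 kb of its 65.4 kb, and 1 of them was exonic.

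**Figure D3:**
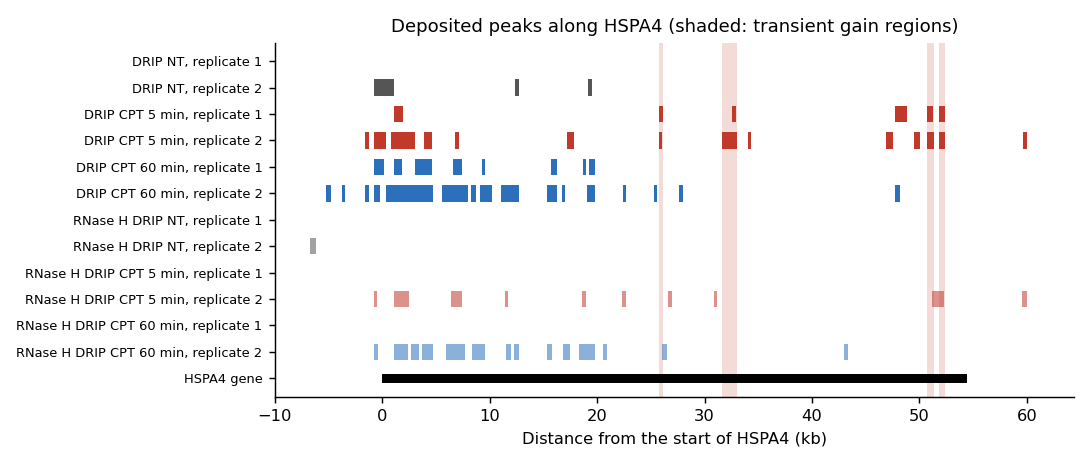
Deposited peaks of the 12 lists along HSPA4 (x axis, distance from the gene start in kb; 1 row per list, boxes are peaks), with the gene as a black bar and the 4 transient gains shaded. Both 5 min DRIP lists had peaks in the 4 shaded stretches, the first at 25.7 kb and the last ending at 52.4 kb, and no NT or 60 min DRIP peak fell in them, while the 60 min peaks shared by both replicates lay in the first 19.8 kb.

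The DNA of transient gains was poorer in G and C than that of the other sets compared. Comparisons of GC content, copies and position were made among DRIP regions only. Values for unselected genomic sequence were not set beside them, so they do not tell whether members differ from the genome at large. The median GC content was 40.3% (95% interval, 39.9 to 40.7%; interquartile range, 38.3 to 46.1%), compared with 44.1% for stable gains, 45.9% for late gains, 54.5% for stable losses and 49.0% for all regions. A GC content under 40% was found in 616 members (48.0%) and in 15.4% of all regions. The observed-to-expected ratio of CpG had a median of 0.20 against 0.30 in all regions, and GGG trinucleotides on either strand had a median of 22.1 per kb against 36.8 in all regions and 27.3 in stable gains. At matched width, 500 to 800 bp, the 610 members had a median GC content of 40.3%, stable gains 42.8%, late gains 46.2% and stable losses 52.2%. At matched position the members were also the lower, 41.3% against 43.4% of stable gains and 47.7% of all regions in introns, and 39.3% against 40.5% and 42.0% outside genes. All peaks of the 5 min lists had a median GC content of 44.7% in replicate 1 and 47.9% in replicate 2, below the 51.2% and 51.9% of the NT lists, and the 60 min lists had 49.1% and 47.5%. The part of this difference between whole lists in the members' value was not tested. Of the 736 members in host genes of a single strand, 427 (58.0%) had more G than C on the sense strand, against 69.5% of stable gains, with a median skew of 0.02.

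Many transient gains lay over repeated sequence. The genome-wide copies of the 24-base words in the central 200 bp had a median of at least 10 in 595 members (46.3%; 43.6 to 49.1%), compared with 23.3% of stable gains, 27.4% of late gains, 16.1% of stable losses and 26.0% of all regions. At least 100 copies were found in 381 members (29.7%) and 17.0% of all regions. Within introns, 10 or more copies were found in 41.4% of members against 25.8% of all regions, and outside genes in 61.3% against 53.1%. In stable gains the shares were 23.6% within introns and 55.8% outside genes (95% Wilson interval, 46.9 to 64.4%). Outside genes, 100 or more copies were found in 173 of 439 members (39.4%; 34.9 to 44.1%) and 48 of 120 stable gains (31.7 to 48.9%), so there the members were not set apart from stable gains. Members with 10 or more copies had a lower GC content than the rest, 39.4% against 42.1%, a higher median percentile in replicate 1, 57.6 against 41.9, and an equal one in replicate 2, 39.3. A share of 55.8% of members had a 24-base word in common with at least 1 other member, so these regions are not independent sequences. Within the other sets, which differ in size, the share was 46.5% of late gains, 38.1% of stable gains and 25.8% of stable losses. A word in common with 10 or more others was found in 34.8% of members, 37.4% of late gains, 20.6% of stable gains and 16.6% of stable losses. Reads from repeated DNA can be placed at more than 1 site, and their part in these peaks was not tested.

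**Figure D4:**
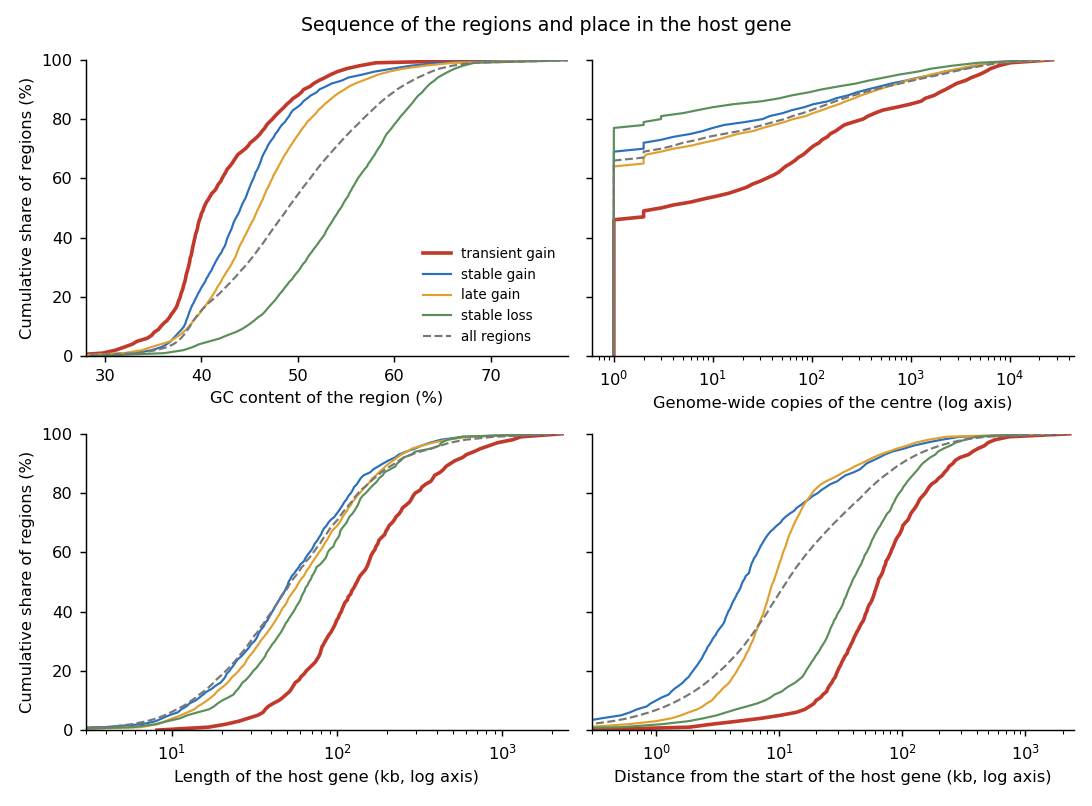
Cumulative share of regions (y axes, percent) by GC content, by genome-wide copies of the central 200 bp, by length of the host protein-coding gene, and by distance from its start (the last 3 on log axes), for transient gains (n = 1284; 750 in host genes), 3 other sets and all regions. Transient gains had the lowest median GC content of the sets, 40.3%, and the longest median host gene, 132 kb.

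Restriction fragments set the resolution of DRIP. The fragment under the midpoint of a member had a median length of 2197 bp (95% interval, 2127 to 2276 bp), whereas it was 2538 bp over all regions, 2111 bp over stable gains, 1752 bp over late gains and 3838 bp over stable losses. In the median, the member covered 28.9% of its fragment, and 208 members (16.2%) covered 80% or more. An edge within 5 bp of a restriction site was found in 67.9% and 72.7% of the members' 5 min peaks, compared with 64.3% and 58.9% of all peaks of the same lists and 75.8% and 74.7% of stable gain peaks. The true extent of the hybrids within these fragments is below the resolution of the assay.

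The RNase H DRIP lists did not enter the rule, and they met a minority of the members. They came from the same replicates as the DRIP lists that the rule used, so their shares are given as a description. In replicate 1, an RNase H peak met 0 of 1284 members in NT (upper Wilson limit 0.298%), 15 (1.17%) at 5 min and 12 (0.935%) at 60 min. In replicate 2, it met 51 (3.97%) in NT, 284 (22.1%) at 5 min and 218 (17.0%) at 60 min. Over all regions, the shares were 0.386%, 2.98% and 2.78% in replicate 1 and 13.2%, 43.3% and 65.3% in replicate 2. In each of the 6 lists the members' share was below that of all regions. These lists differed widely in length, from 473 peaks in NT replicate 1 to 67188 at 60 min replicate 2, and each share moves with the length of its list. Any of the 6 lists met 446 members (34.7%) against 73.4% of all regions. The share was 26.3% in stable losses, 68.3% in late gains and 94.3% in stable gains. Both 5 min lists met 9 members. In the 5 min list of replicate 2, the members' 22.1% lay above the 16.4% of late gains and the 13.1% of stable losses and below the 66.2% of stable gains. In the 60 min list of replicate 2, the share was 91.3% in stable gains and 65.5% in late gains, sets that required 60 min DRIP peaks. Members, which allowed none, had 17.0%, and stable losses, which also allowed none, had less. The RNase H shares thus followed the DRIP peaks that define each set. The part of the rule in the members' shares, and in the differences between treatments below, was not tested. Members were also narrow, 633 bp against 1394 bp for all regions in the median, and the part of width in these shares was not tested. From NT to 5 min, the mean share of members met by an RNase H peak went from 1.99% ± 2.81 to 11.6% ± 14.8 (SD, n = 2), a difference of 9.66 percentage points that did not pass the two-sided exact permutation test (p = 0.667; smallest possible p, 0.333). From NT to 60 min it was 6.97 points, to 8.96% ± 11.3 (exact permutation p = 0.667, n = 2). The same differences over all regions were 16.4 and 27.3 points. With RNase H lists of equal length, 473 peaks each, the differences were 0.234 and 0.0389 points (exact permutation p = 0.333 and 1). Leaving out the RNase H-met members at 5 min left 994 members (77.4%), so fewer than 1 in 4 transient gains had a peak in the RNase H-digested DNA of the same treatment.

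**Figure D5:**
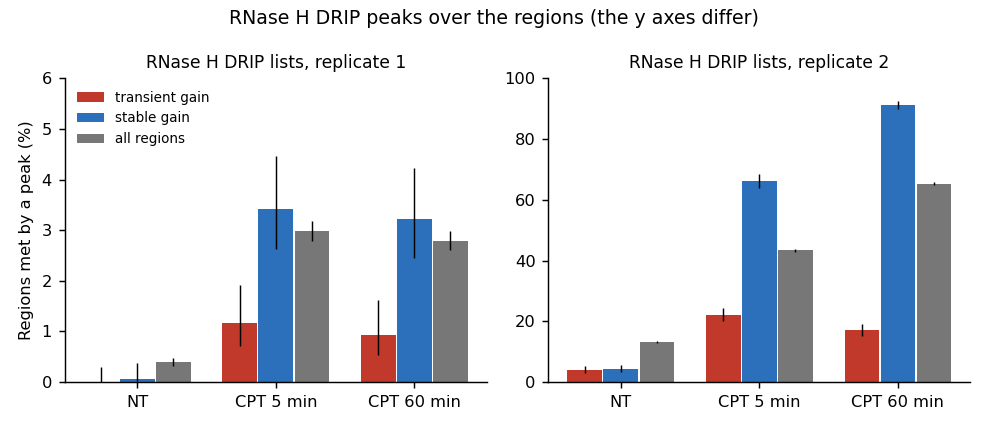
Share of regions met by a peak of each RNase H DRIP list (y axes, percent; the axes of the replicates differ) for transient gains, stable gains and all regions, with 95% Wilson intervals as error bars. In replicate 2 the transient gains reached 22.1% at 5 min and 17.0% at 60 min, below all regions at 43.3% and 65.3%.

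Genes of lists chosen for CPT and HCT116 cells, drawn up with earlier results of these data known, held few transient gains. Over 10 lists of named genes, 18 members (1.40%) had their midpoint in a listed gene or within 10 kb of it, against 933 of all regions (3.27%). Among DNA damage response and repair genes there were 6 members. They included introns of XRCC5, which encodes Ku80 (fold enrichments 4.01 and 5.57), and of PRKDC, its partner kinase DNA-PKcs (4.01 and 3.65). They also included the vicinity of RNF8, a ubiquitin ligase gene (5.15 and 3.19), and of LIG3, a DNA ligase gene (3.31 and 3.67). The member near LIG3 lay within RFFL and was classed as terminator, a class that names no gene. RAD51B, named above among the strongest members, was not on the list of repair genes and is not counted here. For the repair genes, the share of 0.467% (0.214 to 1.02%) was close to that of all regions, 0.480%. An intron of TOP1, the gene of the enzyme that CPT traps, held the only member near the 31 topoisomerase, RNase H and R-loop helicase genes (0.0779% of members against 0.305% of all regions), at chr20:39693557-39694143, with fold enrichments of 4.01 and 3.71, percentiles 48.4 and 39.3. That member was 36.4 kb from the gene start, and a 5 min RNase H peak of replicate 2 met it. Common fragile site genes, long genes prone to breakage under replication stress, held 3 members, in FHIT (4.41 and 3.34), LSAMP (3.21 and 3.71) and TPRG1 (3.91 and 2.55), a share of 0.234% against 0.207% of all regions. Colorectal cancer drivers held 2, among them an intron of TCF7L2, the Wnt effector (4.19 and 4.58), a share of 0.156% against 0.288% of all regions. The 83 cytosolic ribosomal protein genes held 1, near RPL36 and closest to SAFB (5.00 and 4.34), a share of 0.0779% against 0.726% of all regions. No member was near the 71 replication-dependent histone genes, 28 p53 targets, 28 immediate early genes or 28 snoRNA host genes (upper Wilson limit 0.298% each). All regions had 29, 89, 63 and 96 there, shares of 0.102%, 0.312%, 0.221% and 0.337%. The limit lies above the histone and immediate early shares and just below the other 2, so little is read from these zeros.

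The primer list of the study gives no independent evidence, as it includes loci at the study's own hybrid gains. Some of its other primers are credited to earlier publications. Its loci held 5 members: 2 in SF3B3, a splicing factor gene (5.33 and 4.21 for the first, 5.53 and 3.94 for the second), and 1 each in NIN, a centrosome gene (4.13 and 4.42), DEK, a chromatin protein gene (3.61 and 4.45), and AP1G1, a clathrin adaptor gene (4.72 and 3.09). This was 0.389% of members against 0.396% of all regions. The AP1G1 member lay 4 bp from an NT or 60 min peak. The list of protein-coding genes over 200 kb was the exception in size, with 249 members (19.4%; 17.3 to 21.6%) in or near 222 genes against 9.92% of all regions and 9.81% of stable gains.

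Members lay on all autosomes and on X. As a share of the regions of a chromosome they ranged from 1.27% on chromosome 19 (31 of 2434) and 2.25% on chromosome 22 to 6.93% on chromosome 8 and 8.14% on chromosome 18 (31 of 381). The median GC content of all regions was 53.7% on chromosome 19 and 44.7% on chromosome 18.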

How the data were processed

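DRIP-seq peak lists of HCT116 cells were analysed for 6 DRIP and 6 RNase H DRIP libraries, grouped by the sample labels. The 6 input libraries served only as controls of the peak calling. Per the methods and the submitters' processing notes, reads were trimmed (Cutadapt), mapped with BWA to hg19 and to the sacCer3 spike-in genome, and cleared of duplicates and blacklisted regions (SAMtools, Picard). The authors then ran MACS2 separately on each library with a paired input as control and pooled no replicates. Each treatment and replicate had a single input beside its DRIP and RNase H DRIP libraries. The deposited columns give, for a peak, the fold enrichment (a ratio of the summit to input), the −log10 p and −log10 q, and a score that was not used. The lists hold no read counts, so depth is unknown, spike-in scaling does not enter, and presence of peaks stands in for the authors' test of reads.

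Overlaps and merging were done as stated for the regions, with midpoints placed on the 20163 protein-coding and 18702 lncRNA genes of GENCODE release 44 on GRCh37. GC content, CpG, restriction fragments and genome-wide copies of 24-base words were computed from the GRCh37 sequence. The count of copies was added after the printed sequences were seen. Repeat annotation was not used here. Coordinates are 1-based. Shares carry 95% Wilson intervals and medians 95% order-statistic intervals. Shares in RNase H lists were compared over libraries with two-sided exact permutation tests. The members and gene lists were chosen with earlier results of these data known. Named genes are those at the 12 members with the highest lower percentile, those with most members, and up to 5 listed genes per list. Some genes and sequences that these rules take are not reported here. Alternatives were lists of equal length (30314 DRIP or 473 RNase H peaks), a minimum −log10 q of 3, overlap of 50%, merging within 1000 bp, a 1000 bp distance to other peaks, looser absence, an RNase H filter, standard chromosomes, other annotation or width measures, and leaving out each replicate. Simulated lists served to test the steps. Python 3.11.15, NumPy 2.4.6, pandas 2.3.3, SciPy 1.17.1, pysam 0.24.0 and Matplotlib 3.10.9 were used.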

Additional observations from a re-analysis of the deposited data

How the results depend on the processing

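The number of transient gains was 585 with a −log10 q of at least 3, 783 with DRIP lists of equal length, 3560 with a looser absence (a peak allowed in 1 replicate of NT and in 1 of 60 min) and 17886 to 19006 with a replicate left out. It was 970 to 1284 under the 5 other settings. With the q minimum and with equal lists, 368 (28.7%) and 435 (33.9%) of the 1284 members were still met. Of the 12 strongest, 6 stayed members with the RNase H filter, 9 with merging and 10 with the 1000 bp distance. The gene body share, 51.6%, was 48.4% with looser absence, 58.6% with any overlap, and 43.3% to 57.2% with a replicate left out. The median GC content, 40.3%, was 41.5% with equal lists, 42.1% with looser absence, 39.9% with the RNase H filter, 41% around summits and 41.4% to 42.8% with a replicate left out. All of these were below the 44.1% of stable gains in the main setting. Stable gains were not rebuilt with the altered lists or rules, so the contrast under those settings is not known. The median width, 633 bp, was 727, 701, 608, 653 and 708 bp with the q minimum, equal lists, 50% overlap, merging and looser absence, 455 bp for deposited peaks, and 365 to 481 bp with a replicate left out. The median fragment, 2197 bp, was 2375 bp with equal lists and 1904 to 2056 bp with a replicate left out. Members near listed genes, 18 of 1284, were 9 of 585 with the q minimum, 69 of 3560 with looser absence and 11 of 994 with the RNase H filter. They were 283 of 17886 without replicate 2 and 429 of 19006 without replicate 1. These counts move with the size of the set. The RNase H differences, 9.66 and 6.97 points, kept their sign, with 1.17 to 18.1 and 0.935 to 13.0 points with a replicate left out. With the replicate number as a block they stay 9.66 and 6.97 points (exact sign-flip p = 0.5 for n = 2 pairs, the smallest possible). The causes were not tested. Over the settings run for them, added after seeing the data, the median host gene length was 106522 to 142455 bp (main 131826 bp), the outside share 26.5% to 41.1% and the share with 10 or more copies 45.5% to 46.3%. Share of repeats from a soft-masked genome was not run. Depth, unknown here, limits which weak peaks reach the threshold.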
